A study of Solanum lycopersicum with 6 samples.

Results

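The miR171 family was taken as every entry of the tomato (Solanum lycopersicum) microRNA (miRNA) table whose name begins with sly-miR171. That rule gave 7 of the 137 mature miRNAs listed: miR171a, miR171b-3p, miR171b-5p, miR171c, miR171d, miR171e and miR171f, from 6 precursors. Both arms of the hairpin were listed for miR171b alone, and the names of the other 5 entries do not state an arm. All 7 had counts, and 6 had enough of them to be tested.

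Plants of the drought group received liquid fertilizer, diluted 500-fold, a single time a week once they had flowered. Control plants received the same dilution and plain water on alternating days, so the drought plants had less fertilizer as well as less water. Small RNA came from fruit at the green stage, with 3 drought and 3 control libraries. The labels name no cultivar or genotype. They leave it unsaid if replicates are different plants, and the tests below thus cover the variation among libraries, which could be technical.

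miRNAs of this family guide the cleavage of mRNAs for GRAS-domain transcription factors of the HAIRY MERISTEM type, which keep shoot meristems undifferentiated. In tomato their known targets include GRAS24 and HAM. A miRNA precursor is cut into a short duplex: the arm kept in the Argonaute protein acts on targets, and the passenger arm is mostly degraded. In this family the 3p arm is the one known to match the GRAS mRNAs. A 5p arm made in Arabidopsis has been linked to another target. The target mRNAs were not measured here.

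Drought libraries held 430732 to 468711 miRNA counts and control libraries 644434 to 749332. Scaling by the trimmed mean of M values (TMM) gave drought libraries 1, 2 and 3 factors of 0.848, 1.35 and 0.993, and the control libraries factors near 1. Values below are CPM, the counts per 1e+06 counts of the scaled library size, unless called counts. They are relative to all other miRNAs in the fruit, and fewer cells that make a miRNA cannot be told apart from less of it per cell. miRNA counts hold no mRNA marker of fruit, so the tissue label was taken as given.

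In green fruit the summed level of the family overlapped between drought and control libraries, while the shares of its leading entries did not. The 5p arm of miR171b, nearly absent in control fruit, rose, and it was the 1 entry of the 7 to pass the test. The drought libraries alone, where it is high, gave it enough counts to be tested. miR171e, the second entry of the family by counts, was lower in each drought library than in any control library, and miR171b-3p and miR171d were higher in each, but none of these 3 passed. miR171f, which held most of the family's counts in every library, did not pass either. By edgeR's quasi-likelihood test with Benjamini-Hochberg adjustment over 99 miRNAs, 20.2% of all tested miRNAs passed an adjusted p of 0.05 (9.09% higher and 11.1% lower in drought), so 1 call among 6 tested entries is not more than the table as a whole gave. An unadjusted p under 0.05 was reached by 4 of the 6, beside 34.3% of all tested miRNAs. With library totals alone, 16 miRNAs of the table rose and 11 fell, against 9 and 11 with TMM scaling. With upper-quartile scaling 16 rose and 10 fell, and the median log2 fold change of all miRNAs was 0.40, against 0.16 with TMM.

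**Figure D1:**
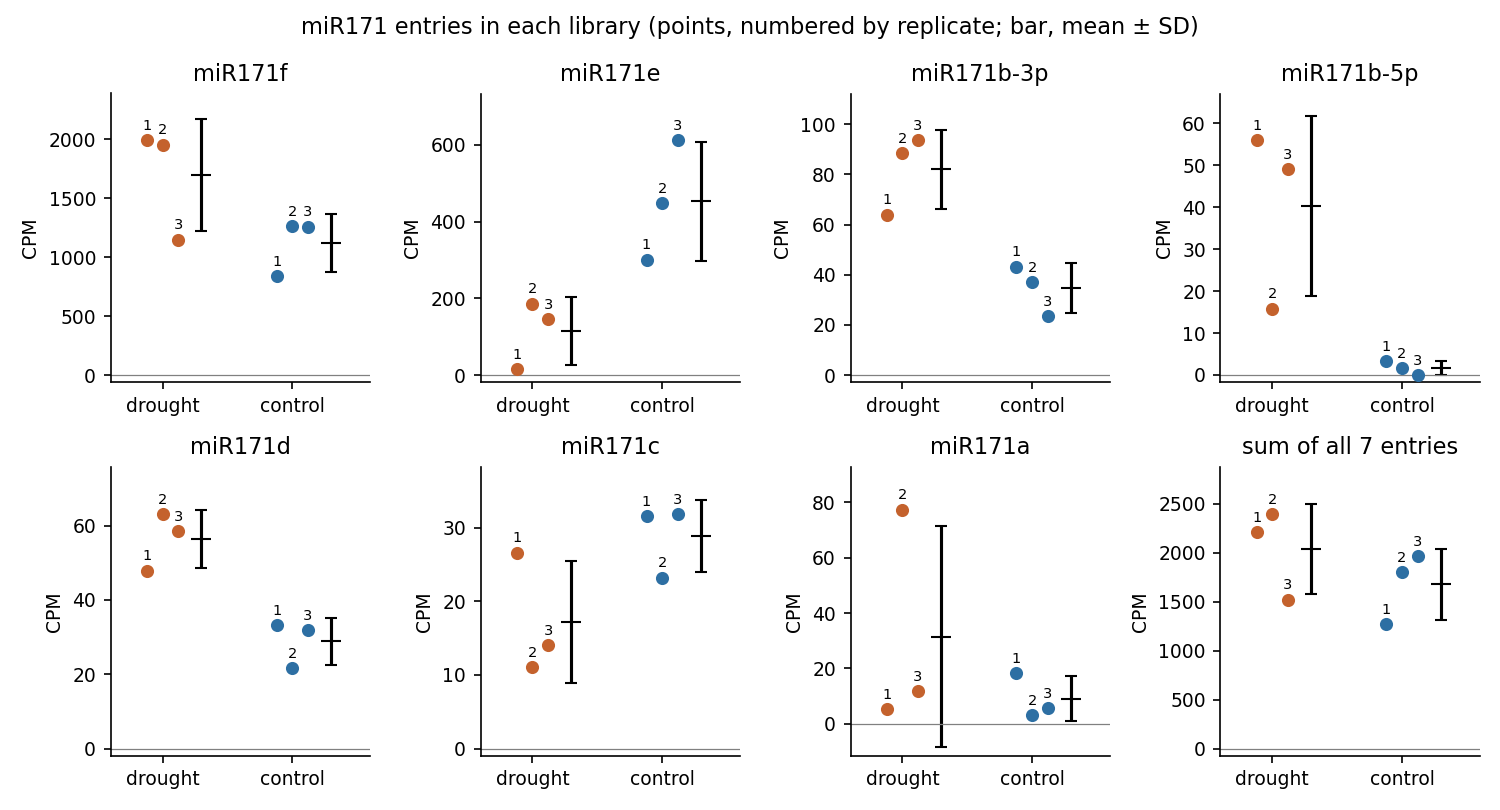
CPM of each miR171 entry and of their sum (vertical axes, each panel on its own scale) in the 3 drought and 3 control libraries, with points numbered by replicate and bars giving the mean ± SD. The points of the 2 groups are apart for miR171e, miR171b-3p, miR171b-5p and miR171d, and overlap for miR171f, miR171c, miR171a and the sum.

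miR171f was the dominant entry. It stood at 1992, 1955 and 1148 CPM in drought libraries 1, 2 and 3, against 840, 1266 and 1261 CPM in control libraries 1, 2 and 3. Drought library 3 lay below the 2 higher control libraries, so the groups overlap. The means were 1698 ± 477 CPM in drought and 1122 ± 245 CPM in control (SD, n = 3 each), and the log2 fold change of 0.60 ± 0.36 (SE) did not pass (edgeR adjusted p = 0.275). Among all 137 entries miR171f ranked between 30 and 35 by counts in the drought libraries and between 36 and 45 in the control libraries, while the other 6 members ranked between 47 and 121.

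miR171e had 16.0, 186 and 145 CPM in drought libraries 1, 2 and 3, against 301, 447 and 611 CPM in control libraries 1, 2 and 3. All drought values lie below all control values, and drought library 1, with 6 counts, is far below the other two. Its means were 116 ± 88.8 CPM in drought and 453 ± 155 CPM in control (SD, n = 3 each). The log2 fold change of -1.95 ± 0.71 did not pass (edgeR adjusted p = 0.0826). Without drought replicate 1 it was -1.39, the weakest value of all settings (edgeR adjusted p = 0.0680). Without drought replicate 2 it was -2.64 and passed (adjusted p = 0.000198), and with DESeq2's Wald test on all libraries it was -1.94 and passed (adjusted p = 0.0121). DESeq2 called 26.5% of the miRNAs it tested. Adjusted p-values of miR171e over all 12 other settings ran from 0.000198 to 0.280.

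miR171b-5p, the passenger arm of its precursor by counts, had 21, 10 and 21 counts in drought libraries 1, 2 and 3, against 2, 1 and 0 counts in control libraries 1, 2 and 3. Each drought library held more counts than any control library, although the drought libraries were shallower. In CPM these were 55.9, 15.8 and 49.1 in drought and 3.33, 1.55 and 0 in control, where a count of 0 allows up to 3 counts, or 4.0 CPM of the unscaled total. The ratio between the pooled scaled counts was 23.8 (95% interval 7.69 to 119 by an exact Poisson method, for counting error alone). The log2 fold change was 4.49 ± 0.85 (SE; edgeR adjusted p = 0.00641). The filter on low counts kept miR171b-5p through the drought libraries alone. With no filter its log2 fold change was 4.52 (edgeR adjusted p = 0.00301). The rise passed in all 12 other settings, with log2 fold changes from 3.91 to 5.37 when a library was left out and adjusted p-values from 1.15e-07 to 0.0272 over the 12.

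miR171b-3p, from the arm known in this family to match GRAS mRNAs, had 63.9, 88.4 and 93.5 CPM in drought libraries 1, 2 and 3, against 43.2, 37.1 and 23.6 CPM in control libraries 1, 2 and 3. The groups do not overlap. With 81.9 ± 15.8 CPM in drought and 34.6 ± 10.1 CPM in control (SD, n = 3 each) its log2 fold change was 1.25 ± 0.40, just outside the threshold (edgeR adjusted p = 0.0529). Of the 12 other settings 3 made it a call: scaling by library totals (log2 fold change 1.42, edgeR adjusted p = 0.0456), upper-quartile scaling (1.48, adjusted p = 0.0268) and leaving out drought replicate 1 (1.45, adjusted p = 0.0496). Its adjusted p reached 0.265 without control replicate 3.

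miR171d had 47.9, 63.2 and 58.5 CPM in drought libraries 1, 2 and 3, against 33.3, 21.7 and 31.9 CPM in control libraries 1, 2 and 3. Here too the groups do not overlap, and the relative spread in drought was the smallest of the 7 entries, a coefficient of variation of 13.8%. The log2 fold change of 0.97 ± 0.39 did not pass (edgeR adjusted p = 0.106), nor did it in any of the 12 other settings. Of the 6 tested entries 4 had groups that did not overlap, 3 higher and 1 lower in drought, beside 37.4% of all tested miRNAs.

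The remaining members were near the lower end of what the libraries could show. miR171c had 10, 7 and 6 counts in drought libraries 1, 2 and 3, against 19, 15 and 23 counts in control libraries 1, 2 and 3. In CPM the groups overlap, at 26.6, 11.1 and 14.0 in drought and 31.6, 23.2 and 31.9 in control, and the log2 fold change of -0.78 ± 0.48 did not pass (edgeR adjusted p = 0.275).

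miR171a was left out by the filter on low counts. It had 2, 49 and 5 counts in drought libraries 1, 2 and 3, against 11, 2 and 4 counts in control libraries 1, 2 and 3. Drought library 2 alone held 49 of its 73 counts, and the other drought values lie within the control range. With no filter its log2 fold change was 2.04 ± 0.92 (edgeR adjusted p = 0.141).

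**Figure D2:**
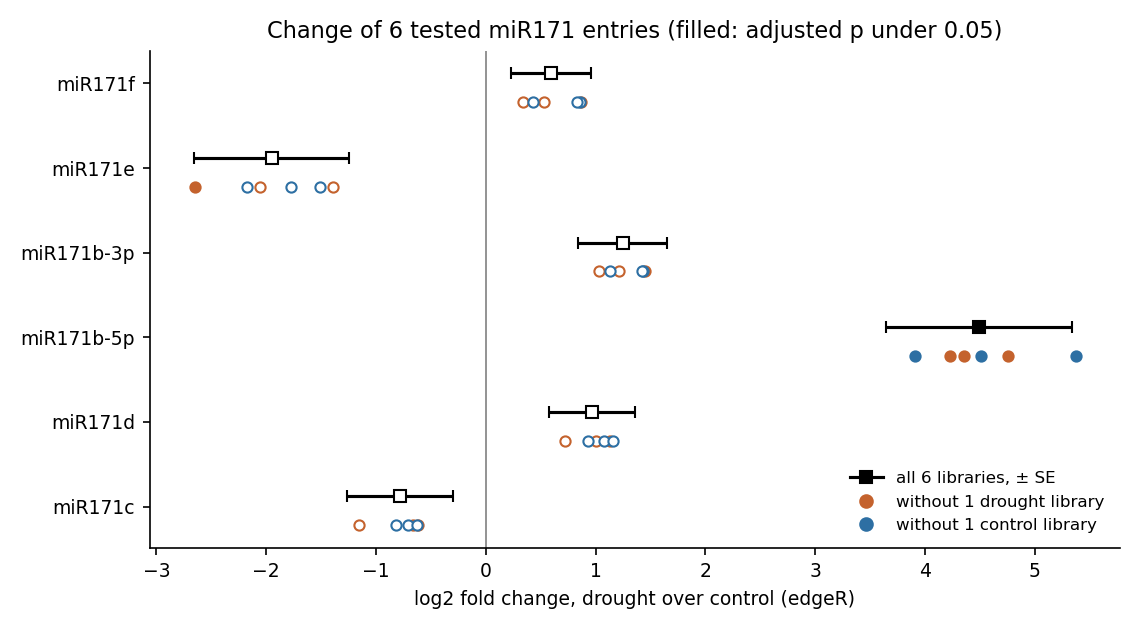
Log2 fold change of drought over control (horizontal axis) for the 6 tested entries, as squares ± SE for all 6 libraries and as circles for the fits without 1 library, filled where the edgeR adjusted p is under 0.05. miR171b-5p is filled throughout, from 3.91 to 5.37 without 1 library, and miR171e is filled once, at -2.64 without drought replicate 2.

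The authors' deposited table, whose test is not named, gives an adjusted p (FDR) under 0.05 to 3 of the 7 entries, all higher in drought, where 24.8% of its entries with a value have one. In the authors' deposited table miR171b-3p has a log2 fold change of 1.35 (FDR 0.000163) and miR171d one of 1.05 (FDR 0.00351). miR171b-5p stands there at 4.51 (FDR 0.00155). The authors' deposited table puts miR171e just outside this limit, at -1.91 (FDR 0.0556). Fold changes there lie close to those of edgeR, so the calls differ mainly in their p-values.

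The sum of the 7 entries was 2207, 2397 and 1520 CPM in drought libraries 1, 2 and 3, against 1271, 1799 and 1965 CPM in control libraries 1, 2 and 3. These ranges overlap. The means were 2041 ± 462 CPM in drought and 1678 ± 363 CPM in control (SD, n = 3 each), a log2 ratio of 0.28 that was not tested. It was 0.08 without drought replicate 2 and 0.56 without control replicate 3, the lowest and highest values without a single library. Without miR171f, the other 6 entries together were at 343 ± 116 CPM in drought and 556 ± 138 CPM in control, a log2 ratio of -0.70. These sums overlap too, at 216, 442 and 372 CPM in drought libraries 1, 2 and 3, against 430.7, 534 and 704 CPM in control libraries 1, 2 and 3. Without miR171e as well, the remaining 5 entries were at 227.4 ± 28.05 CPM in drought and 103 ± 23.3 CPM in control, a log2 ratio of 1.14, so that the direction of such a sum depends on which of the leading entries it holds.

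miR171f took 90.2, 81.6 and 75.5% of the family's counts in drought libraries 1, 2 and 3, against 66.1, 70.3 and 64.2% in control libraries 1, 2 and 3. Every drought share is above every control share. The difference of 15.6 percentage points had an exact two-sided permutation p of 0.1 over 20 assignments, the smallest that 3 against 3 libraries can give, and 0.1 after Benjamini-Hochberg adjustment over the 2 shares tested in this way. miR171e took 0.724, 7.77 and 9.54% in drought libraries 1, 2 and 3, against 23.7, 24.8 and 31.1% in control libraries 1, 2 and 3. The other 5 entries each took under 7% in any library. Shares are fixed to a common total, so a lower share of miR171e raises the others.

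By mean CPM the order in drought was miR171f, miR171e, miR171b-3p, miR171d, miR171b-5p, miR171a and miR171c, and in control miR171f, miR171e, miR171b-3p, miR171d, miR171c, miR171a and miR171b-5p. In control, miR171b-3p at 34.6 ± 10.1 CPM, miR171d at 28.9 ± 6.34 and miR171c at 28.9 ± 4.93 (SD, n = 3 each) had overlapping spreads. In drought, those of miR171e at 116 ± 88.8 CPM and miR171b-3p at 81.9 ± 15.8 overlapped, as did those of miR171d at 56.5 ± 7.80 and miR171b-5p at 40.3 ± 21.5. The wide drought spreads of miR171e and of miR171a, at 31.5 ± 39.9 CPM, also reached miR171d and miR171b-5p, so these pairs are not the only ones that overlap. Adapter ligation favours some miRNA ends, and reads that match several close members may have been given to 1 of them, so the order is that of the counts.

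The arms of miR171b could be set against each other within each library. The 5p arm made up 46.7% of the precursor's counts in drought library 1 (21 of 45 counts, exact 95% binomial interval 31.7 to 62.1%), 15.2% in drought library 2 (10 of 66, 7.51 to 26.1%) and 34.4% in drought library 3 (21 of 61, 22.7 to 47.7%). In control it made up 7.14% in library 1 (2 of 28, 0.877 to 23.5%), 4.0% in library 2 (1 of 25, 0.101 to 20.4%) and 0% in library 3 (0 of 17, 0 to 19.5%). Each drought library is above each control library, but the interval of drought library 2 overlaps those of all 3 control libraries, and that of drought library 3 overlaps that of control library 1. The mean share was 32.1% ± 15.9 in drought and 3.71% ± 3.58 in control (SD, n = 3 each). A two-sided exact permutation test gave p = 0.1, the smallest possible, and 0.1 after adjustment.

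**Figure D3:**
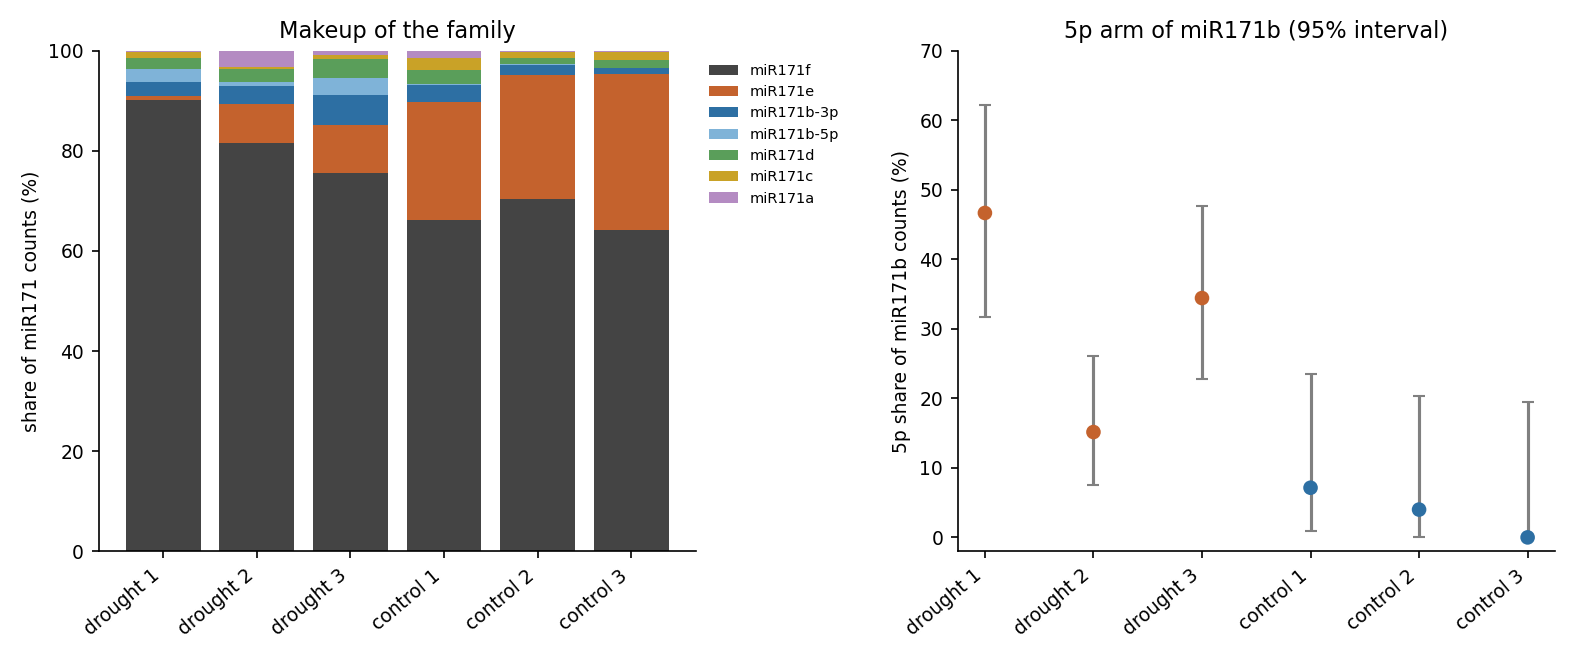
Left, the share of the miR171 counts (%) held by each entry in each library, and right, the 5p share (%) of the miR171b counts with exact 95% binomial intervals. miR171e takes 0.724 to 9.54% in drought and 23.7 to 31.1% in control, and the 5p share is 15.2 to 46.7% in drought and 0 to 7.14% in control.

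Whether the arms changed unequally was tested in 1 edgeR model over the 25 precursors with at least 10 counts in each arm, with the library as a block. The 5p to 3p ratio of miR171b was higher in drought by 3.16 ± 1.09 on the log2 scale (SE), the smallest unadjusted p of the 25 (0.00470), but it did not pass (edgeR adjusted p = 0.107). None of the 25 passed (0%), and 16.0% of them, 4 precursors, had an unadjusted p under 0.05. Without drought replicate 2 the value was 3.73 and passed (edgeR adjusted p = 0.00442), and over the 8 other settings the adjusted p ran to 0.292. The pattern was not particular to miR171b. miR482e had a ratio higher by 1.73 ± 0.65 (SE) and the same edgeR adjusted p of 0.107. Its less abundant 5p arm rose and passed (log2 fold change 1.51, edgeR adjusted p = 0.0428). Its 3p arm did not pass (-0.25, edgeR adjusted p = 0.566). A rise of the 5p arm that passed beside a 3p arm that did not therefore does not show that the arms differ in their response.

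The pooled less abundant arms of other precursors followed the 5p share of miR171b in the order of the drought libraries, but not of the control libraries. Over the 31 other precursors with both arms listed, these arms took 36.6, 8.32 and 20.8% of the counts of both arms in drought libraries 1, 2 and 3, against 12.1, 12.4 and 12.8% in control libraries 1, 2 and 3. Without miR396a, whose 3p arm is abundant, the shares over 30 precursors were 19.1, 5.03 and 12.3% in drought and 7.29, 9.0 and 9.69% in control. These are shares of pooled counts, so abundant precursors weigh most and each precursor need not have moved. miR166c-5p, the most abundant of these arms after miR396a-3p with 38278 counts, took 8.32 to 43.4% of its precursor in drought and 27.1 to 33.8% in control. miR9476-5p took 10.6 to 13.9% in drought and 7.16 to 16.5% in control. In other precursors the groups did not overlap. The 5p share of miR482e was 5.73 to 11.6% in drought and 1.87 to 3.20% in control. That of miR156e was 75.3 to 84.4% and 88.5 to 92.4%, and that of miR394 95.2 to 98.1% and 98.6 to 100%. The less abundant arm, 5p in miR482e and 3p in miR156e and miR394, thus took more in drought. In miR390a the less abundant 3p arm took less, with a 5p share of 54.5 to 60% and 45.2 to 53.6%. Drought library 1 was the highest and drought library 2 the lowest of the drought libraries in the pooled shares, as in the 5p share of miR171b. In drought library 2, however, the pooled shares of the other precursors lay below those of control, while that of miR171b lay above. In control the orders were opposite. The pooled shares were lowest in library 1 and highest in library 3, and the 5p share of miR171b was the reverse. That 5p share rested on 2, 1 and 0 counts of the 5p arm in control libraries 1, 2 and 3. The part of these other arms in the rise of miR171b-5p was not tested.

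**Figure D4:**
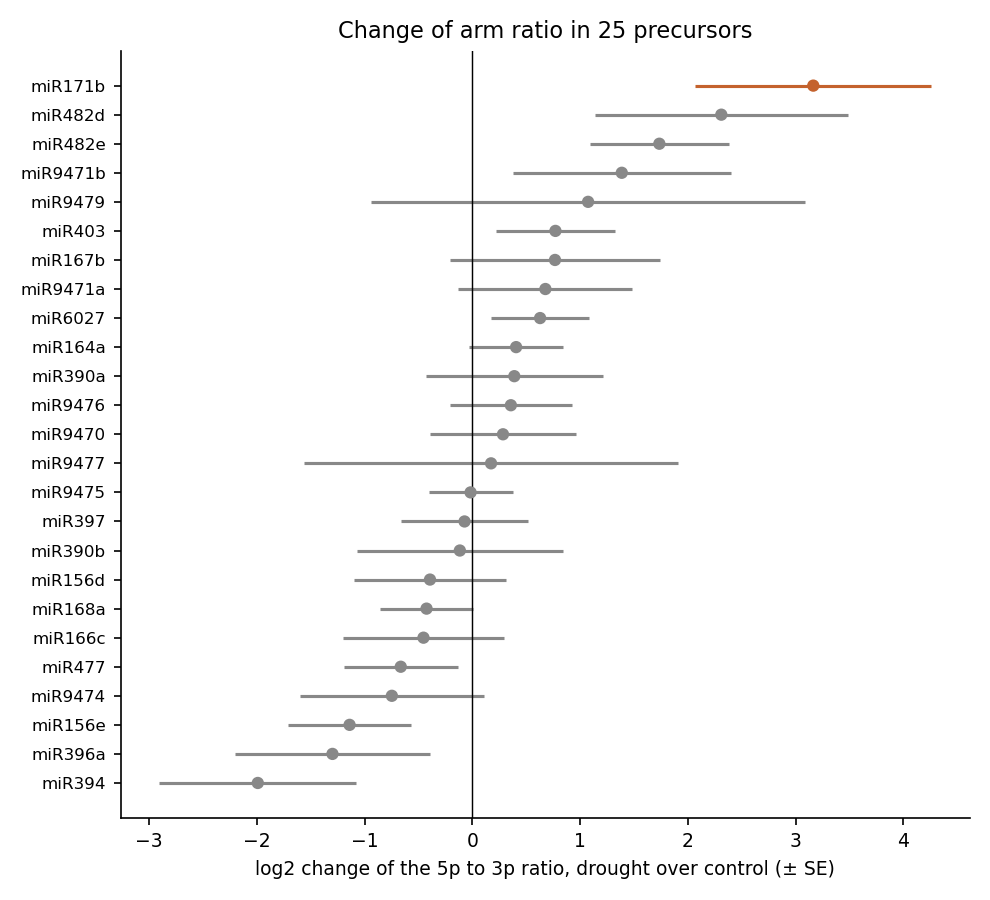
Log2 change of the 5p to 3p ratio, drought over control (horizontal axis, points ± SE), for 25 precursors, with miR171b in orange. miR171b has the highest value, 3.16 ± 1.09, and the smallest unadjusted p, and none of the 25 passed the adjusted threshold.

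Other miRNAs that act in shoot meristems, organ boundaries and phase change, where the GRAS targets of miR171 act too, mostly fell where they passed. Of 17 tested entries of miR156, miR164, miR166, miR172, miR390 and miR394, 1 rose, 7 fell and 9 did not pass (edgeR, adjusted over all miRNAs), beside 9.09% that rose and 11.1% that fell among all tested miRNAs. The list was chosen with earlier results of these data known, so these counts describe it and do not test it. Its entries are part of all tested miRNAs, and both arms of miR156d and of miR164a count separately. The median log2 fold change was -0.11, beside 0.16 for all tested miRNAs. The falls were miR156a, miR156d-5p, miR156d-3p and miR156e-5p, which are made from genes of the SBP-box regulator miR156, both arms of miR164a, a regulator of NAC boundary genes, and miR172c, a regulator of AP2-like genes. The rise was miR394-5p, a regulator of an F-box gene that acts on stem cell fate in Arabidopsis. Without control replicate 2, 3 of the 17 passed, beside 9 of all 99 miRNAs, and without control replicate 3, 5 passed, beside 13 of 99. miR164a-5p stood at 1282 ± 262 CPM in drought and 8640 ± 2667 CPM in control (SD, n = 3 each). The abundant miR166a and miR166c-3p, regulators of HD-ZIP III genes, stood at log2 fold changes of 0.21 ± 0.31 and 0.69 ± 0.30 and did not pass (edgeR adjusted p = 0.636 and 0.128).

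Among conserved regulators of other transcription factors (miR159, miR160, miR167, miR169, miR319 and miR396), 0 of 14 tested entries rose, 3 fell and 11 did not pass (edgeR). Among all tested miRNAs 9.09% rose and 11.1% fell. This list too was chosen with earlier results known and was not tested as a set. The median log2 fold change was -0.47, beside 0.16 for all tested miRNAs. The falls were miR159b, a regulator of GAMYB-like genes, and both arms of miR167b, a regulator of auxin response factors. Without drought replicate 2, 6 of the entries passed, beside 41 of all 101 miRNAs tested in that fit. The abundant miR159 stood at -0.03 ± 0.32 and miR396b, a regulator of growth-regulating factors, at -0.44 ± 0.35, and neither passed (edgeR adjusted p = 0.949 and 0.372).

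Over the 6 libraries the log2 CPM of miR171f followed those of miR9478-3p, miR10538 and miR167a most closely among tested miRNAs outside the family, with Pearson's r of 0.943, 0.872 and 0.842. These 3 were picked as the highest values, so the choice itself makes r high, and r was not tested. miR9478-3p was low, at 41.4 ± 12.9 CPM in drought and 25.4 ± 7.51 CPM in control (SD, n = 3 each). miR167a had 6518, 9521 and 3329 CPM in drought libraries 1, 2 and 3, against 3168, 3127 and 2873 CPM in control libraries 1, 2 and 3. Like miR171f, it was lowest among the drought libraries in library 3. None of these 3 passed between the groups (edgeR adjusted p = 0.275, 0.335 and 0.0787).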

How the data were processed

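The authors deposited 1 table of 137 mature miRNAs. Per the file headers it holds whole-number counts by miRNA and library, a CPM value (a signal on an effective library size, not used here), and the authors' signed fold change, log2 fold change and p-values. Per the labels' protocols, 240 ng of total RNA went into NEBNext small RNA libraries. No source used here gives the trimmer, aligner, miRNA release or genome build, and no sequence or coordinate is printed.

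The members and lists were chosen with earlier results of these data known. Tests used edgeR 4.0.16 under R 4.3.3 (robust quasi-likelihood, TMM, group as the only term) after filterByExpr (minimum count 10, minimum total 15) had kept 99 miRNAs. The threshold was an adjusted p of 0.05. The SE is the log2 fold change divided by the square root of F. DESeq2 1.42.0 was an alternative. Named miRNAs were all members, each list's calls and its 2 most abundant entries, and the 3 most like the leading member by log2 CPM (prior count 2). Scripts were tested on simulated data. PCR copies are not marked, so intervals cover counting error only. No 2 libraries agreed within sampling noise (chi-square per degree of freedom 50.1 or more).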

Additional observations from a re-analysis of the deposited data

How the results depend on the processing

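miR171b-5p passed and every tested miR171 entry kept its direction in all 12 other settings. The number of miR171 entries that passed, 1 in the reported fit, was 2 with DESeq2, library totals alone and upper-quartile scaling, and 1 to 2 when a library was left out. The 8 calls of the meristem and phase-change list were 4 with the replicate block and 3 to 9 without single libraries, and the 3 of the other list were 2 to 6. The arm interaction of miR171b ran from 2.69 to 3.84 without single libraries, past the threshold without drought replicate 2 alone (3.73). The log2 ratio of the family sum and the differences of both shares moved by less than the SD between libraries pooled over the groups (for the sum, of its log2 CPM). Over all tested miRNAs 20 passed, against 12 with the replicate block, 41 without drought replicate 2, 9 without control replicate 2 and 13 without control replicate 3. The causes were not tested. Libraries share only a number: deviations of same-numbered pairs correlated at 0.101, -0.245 and 0.0081, 1 of 6 libraries correlated best with its own number, and under the replicate block miR171b-5p passed (log2 fold change 4.49, edgeR adjusted p = 0.0135). The mean same-number difference of the 5p share, a replicate block for that value, was 28.4 percentage points, equal to the difference of the means. Depth limits miR171a, miR171c, miR171d and both arms of miR171b in control, each with under 30 counts a library there.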
